A study of Mus musculus with 6 samples.

Results

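Border-associated macrophages are the macrophages of the meninges, the perivascular spaces and the choroid plexus, and 10 genes used to recognize them were followed here in the optic nerve: Mrc1, Cd163, Lyve1, Stab1, Folr2, Clec10a, Pf4, Lyz2, Cbr2 and Ms4a7. They were taken by symbol, as markers in common use for these cells, and all 10 were found among the 25755 genes of the deposited table. Whole optic nerves of 6 mice were sequenced in bulk. All were Nf1flox/flox; hGFAP-Cre, and by their labels mice 1 to 3 had a sham operation and mice 4 to 6 an optic nerve crush (ON-CR). Surgery was done on both nerves at 6 weeks of age, and the nerves were taken at 12 weeks, which the labels give as 3 months. Both groups share the genotype. Cre recombinase is driven by the human GFAP promoter and removes Nf1 from neuroglial progenitors and the cells that descend from them, so every mouse compared here carries that deletion, and no group with intact Nf1 enters. The comparison asks how the nerve of these mice differs 6 weeks after a crush from a nerve after sham surgery.

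Border-associated macrophages descend largely from yolk sac progenitors, as microglia do, but they sit outside the parenchyma, where they sample blood and cerebrospinal fluid. They are known for a set of endocytic and scavenger receptors that take up glycoproteins, hyaluronan, haemoglobin complexes and modified proteins, and for low levels of the genes that define homeostatic microglia. In the optic nerve they lie in the meningeal sheath and along vessels, whereas microglia occupy the tissue between the axons. None of the marker genes is exclusive to these cells: monocytes, dendritic cells, megakaryocytes, lymphatic endothelium and some epithelia express one or more of them.

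Values are normalized counts, that is, estimated gene counts that the authors divided by 1 factor per library. The libraries held 17414589 to 23620019 estimated reads, and 1 read corresponded to a value of 0.885 to 1.06. Every marker was above the floor of 3 reads in every library, the lowest being Clec10a with 13 estimated reads in 1 sham mouse. The tissue label was borne out by glial genes, with Mbp (myelin basic protein) at 369255 to 1296440 and Gfap (the astrocyte filament protein) at 99186 to 202957 over the 6 libraries. The libraries also differed in ways that the labels do not give. Ddx3y, a gene of the Y chromosome, was at 1645, 1291 and 1544 in the sham mice and at 976, 4.19 and 0 in the ON-CR mice, so ON-CR mouse 4 carried it as the sham mice did and ON-CR mice 5 and 6 did not. Sex and surgery thus overlapped in part, and the part of sex in the values below was not tested. The globin genes Hba-a1, Hba-a2, Hbb-bs and Hbb-bt summed to 0.716% to 2.38% of a library. Igkc, an immunoglobulin light chain, reached 83710 in ON-CR mouse 6 against 48.2 to 1602 in the others.

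At 12 weeks of age, 6 weeks after the crush, 0 of the 10 marker genes were called, while 6 of 12 genes that all macrophages share rose. None of the markers reached an adjusted p of 0.05 in limma, a threshold that 540 genes, or 2.10% of the table, passed (0.971% higher and 1.13% lower after ON-CR). At an unadjusted p of 0.05, which 15.6% of all genes passed, 2 of 10 markers passed, Ms4a7 higher and Pf4 lower after ON-CR. With the looser of the filters the study describes, an unadjusted p of at most 0.05 and a fold of at least 2, which 4.66% of genes passed (3.17% higher and 1.49% lower), 1 of 10 markers passed, again Ms4a7. A stricter one of the study also asks for a false discovery rate that none of the markers met. In the study the looser filter was applied to DESeq2 results, without features of low coverage. Here it was applied to limma results over all genes of the table. Groups that did not overlap were seen for 1 of 10 markers, against 21.6% of all genes. The median log2 fold change of the markers was 0.06, beside 0.03 over all genes, with 5 markers higher and 5 lower by their fitted values. A missed threshold does not show that the groups were alike, and with 3 mice per group the precision differed by gene. For 8 of 10 markers the 95% interval of the fold change lay within 2-fold in both directions, which was true of 47.8% of all genes, and the exceptions were Ms4a7 and Clec10a. RNA was taken from the whole nerve, and in such bulk samples fewer cells of a type and less RNA per cell cannot be told apart.

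**Figure D1:**
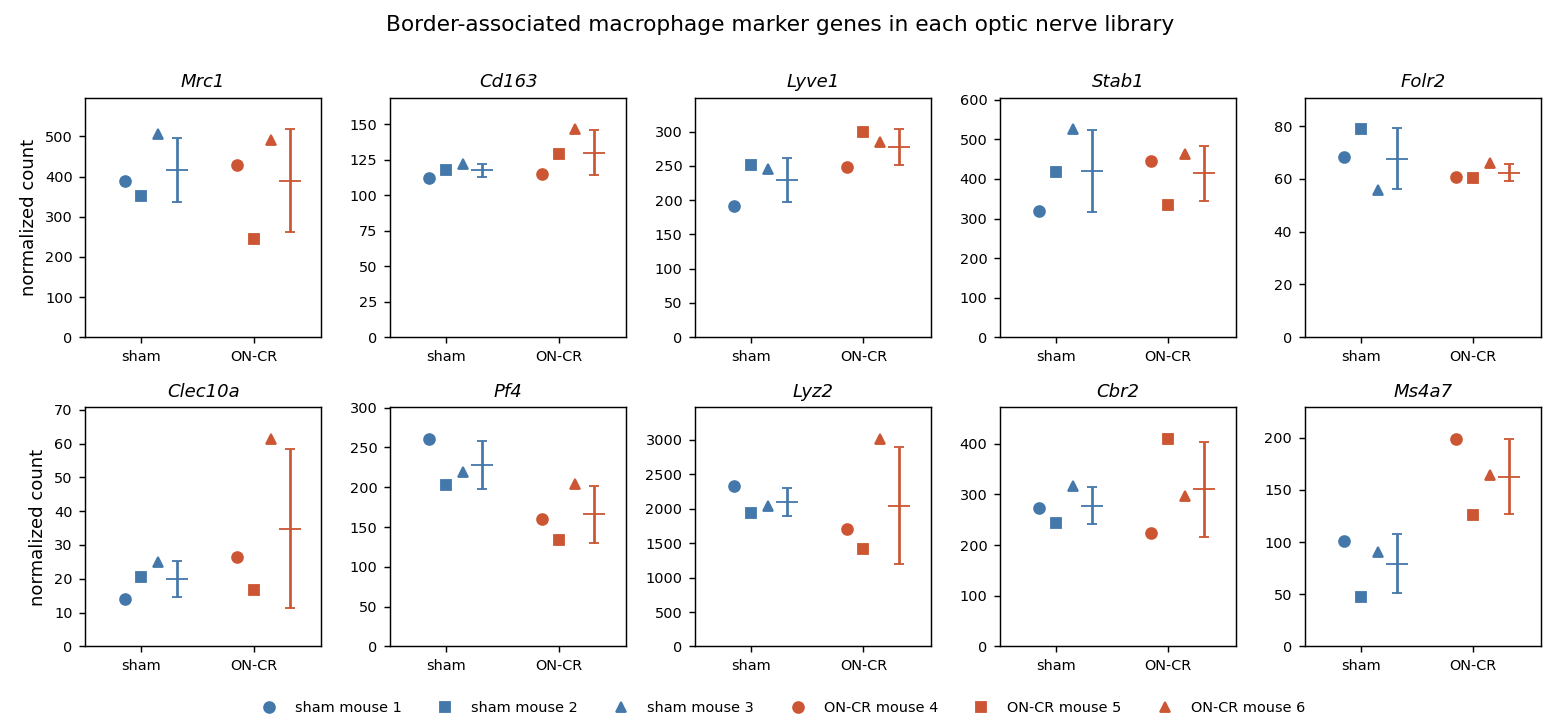
Normalized count of each of the 10 marker genes (y axis, linear, from 0) in the 3 sham mice (blue) and the 3 ON-CR mice (orange), with 1 symbol per mouse and the group mean ± SD beside the points. The groups overlap for every gene except Ms4a7, whose 3 ON-CR mice (126 to 198) all lie above the sham mice (46.9 to 101).

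The uptake receptors come first. Mrc1 encodes the mannose receptor CD206, which binds mannose-bearing glycoproteins and microbes. Its normalized count was 389, 352 and 505 in the sham mice and 430, 245 and 492 in the ON-CR mice. The lowest value was that of ON-CR mouse 5 and the highest that of sham mouse 3, so that the ON-CR range took in nearly the whole sham range. The fitted log2 difference of ON-CR from sham was -0.14 ± 0.25 (SE, n = 3 per group), a fold of 0.908 with a 95% interval of 0.618 to 1.34. Cd163 encodes the receptor for haemoglobin bound to haptoglobin. It was at 112, 118 and 122 in sham mice and at 115, 129 and 146 after ON-CR. Its sham mice differed from each other less than those of any other marker, with a coefficient of variation of 4.10%, and the fold was 1.10 (95% interval 0.818 to 1.48).

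Lyve1, a receptor for hyaluronan that is also made by lymphatic endothelium, was at 192, 251 and 245 in sham mice and at 248, 299 and 285 after ON-CR. ON-CR mice 5 and 6 were above every sham mouse, and mouse 4 was between sham mice 3 and 2. The log2 difference was 0.28 ± 0.17, with an interval of the fold from 0.934 to 1.58. Stab1 encodes stabilin-1, a large scavenger receptor that clears modified lipoproteins and the matrix protein SPARC. Its values were 319, 417 and 525 in sham mice and 445, 335 and 462 after ON-CR. All 3 ON-CR values lay inside the sham range, and the fold was 0.995 (95% interval 0.728 to 1.36). Folr2, the folate receptor beta, was at 68.4, 78.7 and 55.8 in sham mice and at 60.8, 60.2 and 66.0 after ON-CR. The ON-CR mice again lay inside the sham range, with a fold of 0.931 (0.633 to 1.37). An exon of Folr2 overlaps the gene Gm10602 on the other strand, and one of Stab1 overlaps Nt5dc2, and the sources used here do not say whether strand was counted.

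Clec10a, a C-type lectin for galactose and N-acetylgalactosamine that dendritic cells also carry, was the least precise of the markers. It was at 14.2, 20.6 and 24.9 in sham mice and at 26.5, 16.7 and 61.4 after ON-CR. ON-CR mouse 6 stood far above the rest and mouse 5 lay within the sham range. The log2 difference of 0.61 ± 0.50 had an interval of the fold from 0.712 to 3.29, and without mouse 6 the log2 difference was 0.11. A list of 10 dendritic cell genes summed to 320 to 645 in sham mice and 476 to 1419 after ON-CR, again with the maximum in mouse 6. No gene of that list was at 0 in all libraries. Itgax (the integrin CD11c, which activated microglia also make) was the 1 gene of 10 that rose (log2 difference 3.16, adjusted p = 0.00168), as did 0.971% of all genes. It was at 29.7, 26.6 and 31.7 in sham mice and at 301, 163 and 401 after ON-CR. Itgax thus made up more of the list sum after ON-CR than in sham mice. The part of dendritic cells in the Clec10a values was not tested. Over the 6 uptake receptors, adjusted p-values from limma ran from 0.475 for Lyve1 to 0.992 for Stab1, and 3 had a fitted value above and 3 below sham.

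Clec10a and its neighbour Mgl2 on chromosome 11 are near copies, which matters for how short reads are divided between them. The coding sequences of the longest protein-coding transcripts (924 bases for Clec10a) matched at 90.4% of 910 aligned bases. The longest stretch without a difference ran over 183 bases, from coding base 502 to 684 of Clec10a and from 550 to 732 of Mgl2. It is printed in the sense direction, and every base in it is shared:
Clec10a and Mgl2 shared run: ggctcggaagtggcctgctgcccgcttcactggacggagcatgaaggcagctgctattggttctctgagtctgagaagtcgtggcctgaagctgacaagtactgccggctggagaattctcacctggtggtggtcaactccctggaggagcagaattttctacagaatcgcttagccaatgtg
A read that falls within this run fits both genes. Mgl2 was the more abundant of the pair, at 198, 204 and 320 in sham mice and 174, 120 and 528 after ON-CR. The sum of the pair was 212, 225 and 345 in sham mice and 200, 136 and 590 after ON-CR, so both the sum and Clec10a alone were highest in mouse 6. Clec10a made up 6.67%, 9.15% and 7.22% of that sum in sham mice and 13.2%, 12.2% and 10.4% after ON-CR. These shares did not overlap between the groups, although the levels of each gene did. They rest on 13 to 59 estimated reads of Clec10a per library and on how reads were divided between near copies. The difference in shares was not tested, and no background was computed for such shares.

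Pf4 and Lyz2 are secreted. Pf4 encodes platelet factor 4 (CXCL4), a chemokine of platelet granules that resident macrophages also make. It was at 261, 203 and 219 in sham mice and at 161, 133 and 205 after ON-CR. Mouse 6 lay just above the lowest sham mouse, and the other ON-CR mice were below all sham mice. The log2 difference was -0.47 ± 0.20, a fold of 0.724 with a 95% interval of 0.529 to 0.990. The unadjusted p was 0.0443 and the adjusted p 0.305 in limma. Genes of platelets and megakaryocytes were measured beside it. The 10 genes of that list summed to 467, 454 and 477 in sham mice and to 242, 236 and 346 after ON-CR, groups that did not overlap. Of the 10, 5 did not overlap and were lower after ON-CR (11.0% of all genes did so), 0 did not overlap and were higher, and 1 fell with an adjusted p under 0.05, as did 1.13% of all genes. By fitted values 9 of 10 were lower, and Itga2b, the integrin alpha-IIb chain, was at 80.6, 54.9 and 81.7 in sham mice and at 80.8, 72.3 and 110 after ON-CR. The gene that fell, Itgb3, the integrin beta-3 chain, was at 174, 209 and 192 in sham mice and at 102, 75.5 and 99.7 after ON-CR (adjusted p = 0.0287). The call was lost without any 1 of the sham mice or without ON-CR mouse 6. Itgb3 was also the highest gene of the list in each sham mouse, so the separation of the sums leans on it. Ppbp, the neighbour and relative of Pf4 on chromosome 5 and a platelet product, was at 72.2, 62.9 and 87.3 against 29.9, 28.3 and 69.6 (adjusted p = 0.276). No gene of the platelet list was at 0 in all libraries, and its part in the Pf4 values was not tested.

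Lyz2, which encodes lysozyme M and is made by macrophages, monocytes and neutrophils alike, was the most abundant marker. It was at 2331, 1934 and 2037 in sham mice and at 1707, 1415 and 3017 after ON-CR. Mouse 6 was above all sham mice and mice 4 and 5 were below all of them, so the ON-CR mice lay on both sides of the sham range. The fold was 0.926 (95% interval 0.645 to 1.33), and the log2 difference of -0.11 became -0.43 without mouse 6 and 0.12 without mouse 5. Of 10 neutrophil genes listed, 8 were in the table, and they summed to 90.3 to 396 in sham mice and 201 to 329 after ON-CR. None of the 8 reached an adjusted p of 0.05, and Ngp, the highest of them in sham mice, was at 131, 21.2 and 27.2 against 59.8, 68.1 and 112.

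Lyz2 lies beside a close copy, Lyz1, on the minus strand of chromosome 10 (GRCm38). The 2 coding sequences have the same length of 444 bases and are identical at 422 of them, or 95%, with a longest shared run of 118 bases. The first 120 coding bases are shown because 11 of the differences fall there. They are in capitals, Lyz2 from chr10:117282123-117282242 and Lyz1 from chr10:117292719-117292838:
Lyz2: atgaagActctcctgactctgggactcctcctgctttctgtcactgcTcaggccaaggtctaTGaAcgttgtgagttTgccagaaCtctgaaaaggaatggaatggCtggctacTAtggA
Lyz1: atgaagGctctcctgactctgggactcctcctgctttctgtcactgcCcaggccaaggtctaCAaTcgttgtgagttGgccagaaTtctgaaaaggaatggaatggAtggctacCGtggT
Lyz1 took a small part of the pair. It was at 13.8, 8.89 and 35.0 in sham mice and 2.01, 5.27 and 10.4 after ON-CR, which was 0.118% to 1.69% of the sum over both genes. The sum was 2345, 1942 and 2072 in sham mice and 1709, 1420 and 3028 after ON-CR, so adding Lyz1 left the order of the libraries as it was for Lyz2 alone.

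Cbr2 encodes a mitochondrial carbonyl reductase that is abundant in airway club cells and is used as a macrophage marker in skin and brain borders. It was at 273, 244 and 317 in sham mice and at 224, 410 and 297 after ON-CR. ON-CR mice 4 and 5 held the lowest and the highest value of all libraries, and the fold was 1.09 (95% interval 0.775 to 1.53). Transcripts of airway and glandular epithelium were present in some of these nerves. Of 10 such genes 9 were in the table, and they summed to 1284, 966 and 10101 in sham mice and to 489, 7663 and 7203 after ON-CR. Bpifa1, a secreted protein of the upper airway, was at 22.3, 0 and 7568 in sham mice and at 0, 4579 and 5894 after ON-CR. The 3 libraries with the high sums, sham mouse 3 and ON-CR mice 5 and 6, were the 3 highest for Cbr2 as well, and the part of this epithelium in the Cbr2 values was not tested. Without ON-CR mouse 5 the log2 difference of Cbr2 was -0.10 in place of 0.12.

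Ms4a7 showed the largest shift of the markers. It encodes a tetraspan membrane protein of the MS4A family, is low in microglia of the healthy brain and is used to tell border-associated macrophages and cells of bone marrow origin from them. It was at 101, 46.9 and 90.2 in sham mice (mean 79.3 ± 28.5 SD, n = 3) and at 198, 126 and 164 after ON-CR (163 ± 36.3, n = 3). All 3 ON-CR mice were above all 3 sham mice, as were 10.5% of all genes. The fold was 2.11, with a 95% interval of 1.31 to 3.40. Its p was 0.00577, and the adjusted p of 0.117 in limma missed the threshold. Sham mouse 2 had the lowest value, and without it the log2 difference was 0.74 in place of 1.08 and Ms4a7 no longer passed the looser filter. That was also so without ON-CR mouse 4, where it was 0.92. A fit with weights for library quality gave a log2 difference of 1.38 and an adjusted p of 0.0419.

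The Ms4a genes lie in a cluster on chromosome 19 (Ms4a7 at chr19:11321039-11336146, minus strand, GRCm38), and others of the cluster that macrophages express were measured too. Ms4a6d was at 152, 148 and 165 in sham mice and at 338, 195 and 374 after ON-CR, with groups that did not overlap and a log2 difference of 0.91 (adjusted p = 0.0897). Ms4a6c was at 307, 341 and 420 against 583, 419 and 846 (adjusted p = 0.155), and Ms4a6b at 226, 230 and 348 against 341, 196 and 480 (adjusted p = 0.721). Ms4a4a was at 58.4, 41.6 and 65.7 against 35.9, 57.7 and 65.4, with a log2 difference of -0.08. None of them passed the threshold, and the coding sequence of Ms4a7 matched that of Ms4a6d at 66% and that of Ms4a4a at 62.8% of aligned bases, with no shared run over 10 bases.

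The sequence before a start site of Ms4a7 is given because Ms4a7 was the marker with the largest shift. RefSeq promoter windows (250 bases before to 50 after a start, GRCm38.p6) were matched for 8 of 10 markers, in 10 windows, and not for Lyve1 and Clec10a. The core GGAAGT of the motif of PU.1, the ETS factor of the myeloid lineage, searched on both strands, was in 5 of 10 windows and in 25.9% of the 18127 windows of genes in the table. The MAF half-site TGCTGA was in 5 of 10 windows and in 17.3% of all. The AP-1 motif TGANTCA was in 2 of 10 and 5.91%, and TATAAA in 0 of 10 and 8.49%. Ms4a7 has more than 1 window, and the window printed below was chosen because it holds a match to GGAAGT. Its other window (chr19:11334646-11334945, minus strand) had 0 matches to GGAAGT and 1 to TGANTCA. In the 250 bases before the start of Ms4a7 (chr19:11336147-11336396, minus strand, printed in the direction of transcription) the match to GGAAGT, in capitals, is on the opposite strand and begins 15 bases before the start:
Ms4a7: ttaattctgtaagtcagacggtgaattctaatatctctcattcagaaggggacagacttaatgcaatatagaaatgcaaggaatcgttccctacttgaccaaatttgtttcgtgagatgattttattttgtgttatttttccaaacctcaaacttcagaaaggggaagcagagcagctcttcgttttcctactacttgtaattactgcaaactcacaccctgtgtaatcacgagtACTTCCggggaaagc
Such a match is a description of letters and not evidence of binding. Genes of these factor families were measured as well. Spi1, which encodes PU.1, was at 76.4, 158 and 88.3 in sham mice and 174, 39.8 and 59.2 after ON-CR, and Maf was at 1623, 1851 and 2525 against 2494, 1878 and 2335. Neither was called, with adjusted p-values of 0.718 and 0.681 in limma, and both overlapped between the groups.

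Levels of different genes can be set beside each other only per length. Per kilobase of the longest protein-coding transcript, the sham means ran from Lyz2 (1596 normalized counts per kb) over Pf4 (387), Cbr2 (250), Lyve1 (79.2), Mrc1 (77.4), Folr2 (56.2), Stab1 (52.6), Ms4a7 (50.3) and Cd163 (26.4) to Clec10a (8.52). The sham ranges of neighbours overlapped for Lyve1 and Mrc1, for Folr2 and Stab1 and for Stab1 and Ms4a7, so the order within these pairs is not separated by the spread between mice. In sham mice Folr2 also overlapped Ms4a7, and Mrc1 overlapped Stab1, though these are not neighbours. After ON-CR, Ms4a7 (103 per kb) stood in place 4 in place of 8 by its mean, and Lyz2, Pf4 and Cbr2 were again the highest. The ON-CR range of Ms4a7 (79.8 to 126) overlapped those of Lyve1 (85.8 to 103) and Mrc1 (45.6 to 91.6). Its place above them is therefore not separated by the spread between mice. The coefficient of variation between mice had a median of 15.5% over the markers in sham mice (4.10% to 36.0%) and 22.0% after ON-CR (5.08% to 67.5%), and was larger after ON-CR for 6 of 10.

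No mouse was highest or lowest for all markers. ON-CR mouse 6 was the highest library for 3 markers (Cd163, Lyz2 and Clec10a) and the lowest for 0, and the median log2 ratio of its markers to their sham means was 0.28. Mouse 5, also ON-CR, was the highest for 2 (Cbr2 and Lyve1) and the lowest for 3, with a median of -0.20. Sham mouse 1 was the lowest for 4 markers and the highest for Pf4. The remaining 3 libraries had medians of -0.07 (sham mouse 2), 0.14 (sham mouse 3) and 0.01 (ON-CR mouse 4).

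Genes that macrophages of every kind express were measured beside the markers. Of 12 such genes, 6 rose after ON-CR and 0 fell at an adjusted p of 0.05 (0.971% of all genes were called higher), and the median log2 fold change was 1.19. Mpeg1, a pore-forming protein of phagocytes, was at 196, 146 and 166 in sham mice and at 853, 500 and 982 after ON-CR (log2 difference 2.15, adjusted p = 0.00264). Cd68, a lysosomal membrane protein, was at 794, 622 and 617 against 2650, 1822 and 2654 (1.80, adjusted p = 0.00128). Irf8, a transcription factor of the mononuclear phagocyte lineage, had a log2 difference of 1.53, the signalling adaptor Tyrobp 1.26, Aif1 (the protein Iba1) 1.22 and the lysosomal protein Laptm5 0.88, with adjusted p-values of 0.00733, 0.00636, 0.0260 and 0.0401. Csf1r, the receptor for the growth factor on which these cells depend, was at 4877, 3974 and 3615 against 5849, 3950 and 6020 (log2 difference 0.33, adjusted p = 0.402). Mpeg1 and Cd68 kept an adjusted p under 0.05 when any 1 mouse was left out, whereas the other 4 calls were lost without sham mouse 2 or without ON-CR mouse 6, and those of Aif1 and Laptm5 also without sham mouse 1, sham mouse 3 or ON-CR mouse 4.

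**Figure D2:**
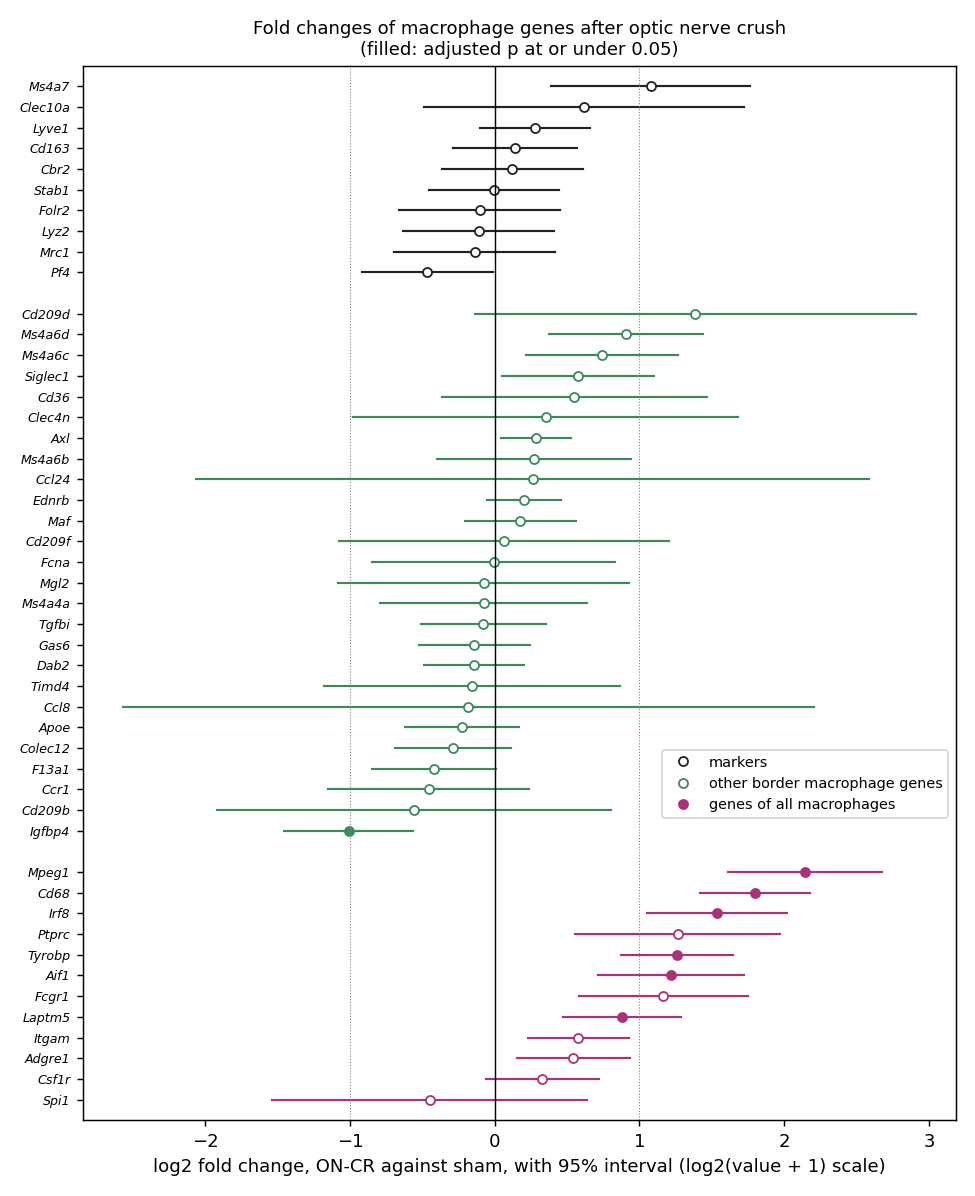
Log2 fold change of ON-CR against sham (x axis, log2(value + 1) scale, points) with 95% intervals (bars) for the 10 markers (black), 26 other border macrophage genes (green) and 12 genes of all macrophages (purple). Filled points have an adjusted p at or under 0.05 in limma and dotted lines mark a 2-fold change, and 0 of the markers, 1 of the green and 6 of the purple genes are filled.

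The uptake receptors were then set against these genes within each library. The 6 uptake receptors summed to 1095, 1237 and 1478 in sham mice and to 1325, 1085 and 1513 after ON-CR. The 12 genes of all macrophages summed to 13973, 11743 and 11347 in sham mice and to 25737, 16610 and 27052 after ON-CR. Expressed as a percentage of that sum, the uptake receptors were at 7.84%, 10.5% and 13.03% in sham mice and at 5.15%, 6.53% and 5.59% after ON-CR, without overlap. Because the macrophage sum rose, a list with unchanged levels would also take a lower percentage, so the gap is not a result about the receptors. When each library was rescaled to its 12 macrophage genes, 6 of 10 markers were called lower after ON-CR, namely Mrc1, Stab1, Folr2, Pf4, Lyz2 and Cbr2. On that scale 46.9% of all genes were called (46.6% lower) and the median gene moved by -0.95, so the count of markers is near the background and is not a result about them. The rescaled log2 difference was -1.16 for Mrc1 (adjusted p = 0.00383), -1.03 for Stab1 and -1.48 for Pf4, the lowest of the 10. Ms4a7 was at 0.06 (adjusted p = 0.899), the nearest to 0 of the 10.

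**Figure D3:**
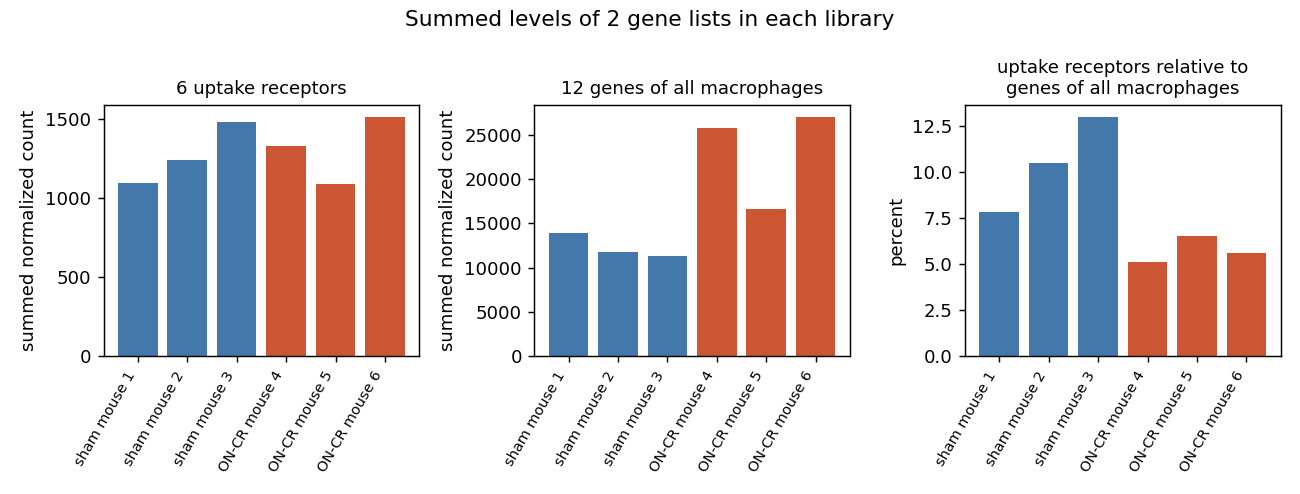
Bars show, for each of the 6 libraries (sham blue, ON-CR orange, y axes from 0), the summed normalized count of the 6 uptake receptors (left), that of the 12 genes of all macrophages (middle) and the first as a percentage of the second (right). The receptor sums overlap between the groups, the macrophage sums do not (11347 to 13973 against 16610 to 27052), and the percentages are 7.84 to 13.03 in sham mice and 5.15 to 6.53 after ON-CR. A list with unchanged levels would also show lower percentages, because the macrophage sums rose.

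A wider list held 26 further genes reported in border macrophages. Of these, 0 rose and 1 fell at an adjusted p of 0.05 (0.971% and 1.13% of all genes), and the median log2 fold change was -0.04. The gene that fell, Igfbp4, is an IGF-binding protein that fibroblasts and vessels also make. It was at 1219, 2097 and 1388 in sham mice and at 905, 710 and 674 after ON-CR (log2 difference -1.01, adjusted p = 0.0317). The call was lost without sham mouse 2, sham mouse 3 or ON-CR mouse 6. Of the 26, 4 did not overlap and were higher after ON-CR (10.5% of all genes) and 2 did not overlap and were lower (11.0%). Siglec1, the sialoadhesin of perivascular and tissue macrophages, was among the former, at 59.4, 62.0 and 70.4 against 91.7, 114 and 83.1 (adjusted p = 0.274). F13a1, the coagulation factor XIII A chain, was among the latter, at 597, 689 and 746 against 583, 369 and 595 (adjusted p = 0.329). Timd4, a receptor for phosphatidylserine on long-lived resident macrophages, overlapped between the groups at 41.3 to 57.3 and 21.0 to 87.2.

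Ligands of these receptors and partners in their pathways made a list of 7 genes, of which 1 rose (0.971% of all genes). Hmox1, the haem oxygenase that breaks down the haem brought in by CD163, was at 465, 337 and 380 in sham mice and at 760, 775 and 964 after ON-CR (log2 difference 1.08, adjusted p = 0.00855). The call was lost without sham mouse 2 (adjusted p = 0.0591) or ON-CR mouse 6 (0.0854). Microglia and astrocytes also express Hmox1, and Cd163 itself was not called. Hp, which encodes haptoglobin, was at 6.20 to 23.3 in sham mice and 9.97 to 21.8 after ON-CR. Sparc, a ligand of stabilin-1, was at 33919, 25503 and 24435 against 26048, 32577 and 30563. The hyaluronan synthases Has1, Has2 and Has3 were all at 30.1 or lower in every library.

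Of 16 relatives of the markers by sequence, 1 rose and 0 fell at an adjusted p of 0.05 (0.971% and 1.13% of all genes), and their median log2 fold change was -0.08. The gene that rose was Cd44, which shares the hyaluronan-binding fold with Lyve1 and is made by many cell types. It was at 890, 638 and 694 in sham mice and at 2237, 2182 and 2821 after ON-CR and rose (log2 difference 1.71, adjusted p = 0.000957), also with any 1 mouse left out, while the fold of Lyve1 was 1.21. Mrc2, a collagen receptor of fibroblasts related to Mrc1, was at 902, 963 and 1134 against 818, 609 and 611, without overlap (log2 difference -0.56, adjusted p = 0.0985). Folr1 was at 56.2, 29.2 and 63.9 against 5.98, 46.1 and 19.7, and Dcxr, a relative of Cbr2 on the same chromosome, at 463, 460 and 407 against 468, 368 and 507. Stab2 and Cd163l1 were at 0 to 8.45. Ms4a4b (27.4 to 126 in sham mice, 56.3 to 215 after ON-CR), Ms4a4c (55.1 to 94.3, 40.2 to 172) and Ms4a8a (8.85 to 16.0, 2.10 to 10.4) overlapped between the groups.

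Markers of the other cells that could hold these transcripts were counted list by list. Of 10 genes of homeostatic microglia 0 were called, and the list summed to 8498 to 12382 in sham mice and 8954 to 12935 after ON-CR. By fitted values 5 of them were higher and 5 lower after ON-CR. Cx3cr1, the fractalkine receptor and the highest of them in sham mice, was at 2885, 2294 and 2052 against 4979, 2731 and 4434 (log2 difference 0.72, adjusted p = 0.128). Tmem119 was the 1 that did not overlap and was lower (11.0% of all genes), at 1523, 1745 and 1675 against 1469, 1169 and 1487. Of 12 monocyte genes 1 rose (0.971% of all genes), and by fitted values 8 were higher and 4 lower. Fn1 and Ace were the 2 that did not overlap and were lower (11.0% of all genes), with log2 differences of -0.41 and -0.64, neither called. The gene that rose was S100a4, which fibroblasts and T cells also make. It was at 74.3, 82.3 and 65.7 against 222, 180 and 261 (adjusted p = 0.00604 in limma), a call lost without ON-CR mouse 6. The 12 monocyte genes summed to 8506 to 9854 in sham mice and 6449 to 8965 after ON-CR. Most of that sum was Fn1, at 6935, 6152 and 7141 against 5757, 4084 and 5559, so the lower sums lean on it. Ccr2, the chemokine receptor that defines classical monocytes, was at 265, 176 and 204 against 356, 102 and 345. None of 9 genes of alternative activation in the table was called. Tgm2, the highest of them, was at 752, 812 and 758 against 737, 680 and 1113, and Arg1 was at 6.20 to 14.9 in sham mice and 6.98 to 13.6 after ON-CR.

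The sheath and the vessels, where border-associated macrophages sit, were followed by their own genes. Of 10 genes of meningeal and sheath fibroblasts, 0 were called, 9 had a lower fitted value after ON-CR and 3 did not overlap and were lower (11.0% of all genes). Slc6a13, a transporter of the arachnoid and pial layers, was at 7469, 7273 and 8543 in sham mice and at 6595, 3628 and 5394 after ON-CR (log2 difference -0.62, adjusted p = 0.147), and the list summed to 35230 to 41673 and 22652 to 36498. Blood endothelium had 0 of 6 genes called and sums of 2166 to 2585 and 2103 to 2628. By fitted values 2 of the 6 were higher and 4 lower after ON-CR. Vwf did not overlap and was higher (10.5% of all genes), at 441, 693 and 574 against 746, 706 and 1078. Cdh5 did not overlap and was lower (11.0% of all genes), at 340, 334 and 371 against 317, 242 and 269. Lymphatic endothelium, the other source of Lyve1, had 0 of 6 genes called and sums of 5703 to 6035 and 5549 to 7292. Most of that sum was Pdpn, which astrocytes also make, at 4749, 4253 and 4541 against 6082, 4530 and 4733. The markers Ccl21a (2.82 to 15.6 over the 6 libraries) and Mmrn1 (0 to 7.27) were near the floor of 3 reads.

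**Figure D4:**
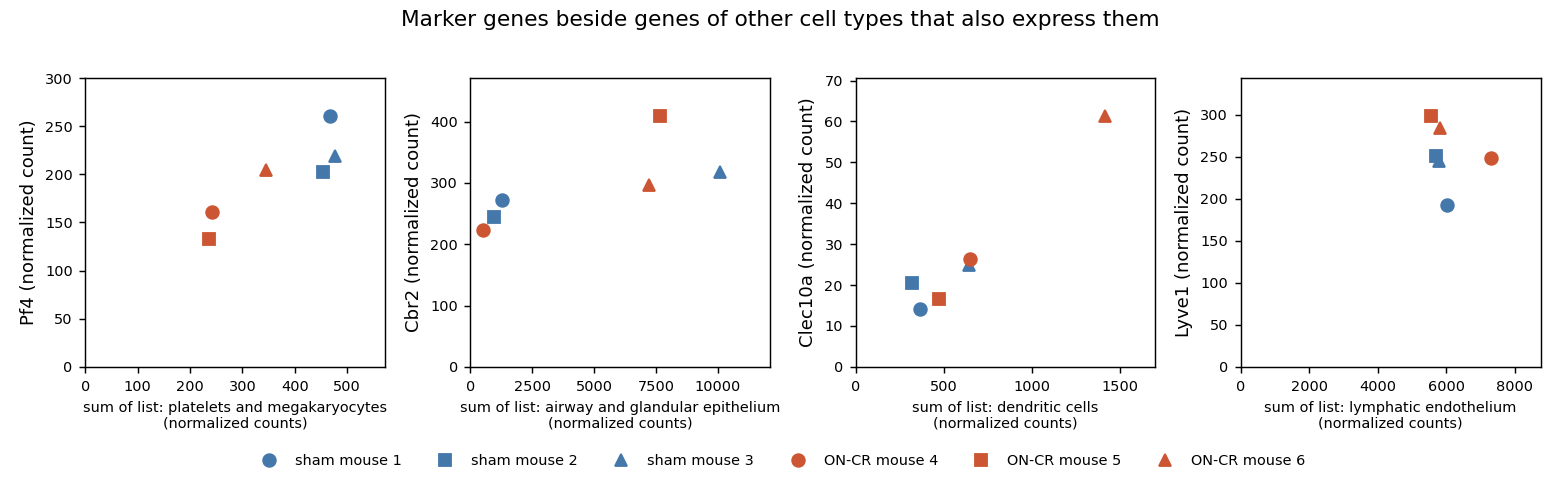
Each panel plots the normalized count of 1 marker (y axis) against the summed normalized count of a list of another cell type that also expresses it (x axis), with 1 symbol per mouse (sham blue, ON-CR orange) and both axes from 0. Pf4 is lowest in the 2 libraries with the smallest platelet sums, and Cbr2 is highest in the 3 libraries with airway sums of 7203 to 10101. Clec10a is highest where the dendritic cell sum is, a sum that includes Itgax, which activated microglia also make. Lyve1 is set against a lymphatic sum that is mostly Pdpn, which astrocytes also make.

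Blood and plasma cell genes were the last lists. All 5 blood genes had a lower fitted value after ON-CR (median log2 fold change -0.63) and overlapped between the groups. They summed to 269397 to 509290 in sham mice and 136974 to 378023 after ON-CR with 0 of 5 called, Hbb-bs being at 202153, 121340 and 102665 against 53253, 159813 and 102138. The 8 plasma cell genes, 0 of them called, summed to 910 to 3108 in sham mice and to 1759, 465 and 119904 after ON-CR. Without ON-CR mouse 6, the library with that maximum, 0 of 10 markers were called, as with all mice. That fit called 67 of all genes in place of 540, so the count of markers cannot show whether mouse 6 mattered. Of 7 glial genes of the nerve, 4 of myelin fell (Mbp, Cnp, Mag and Mog, with log2 differences of -1.42, -0.86, -0.82 and -0.90 and adjusted p-values of 0.0117 to 0.0320), and all 4 calls were lost without sham mouse 2 or ON-CR mouse 6, those of Cnp, Mag and Mog also without sham mouse 1.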

How the data were processed

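RNA from optic nerves of perfused mice was made into libraries with the SMARTer Ultra Low kit, and the labels group the mice as sham (1 to 3) and crush (4 to 6). The authors aligned and quantified reads with DRAGEN against Ensembl gene models of mm10 (GRCm38) and applied median normalization in Partek Flow (version 10.0 in the submitters' processing notes). The deposited values are a normalized signal per gene, estimated counts divided by 1 factor per library. From 70.1% to 72.1% of values were whole multiples of what 1 read is worth, so no count model was used. The factor gave the estimated reads used for depth, floors, filters and voom. No column of other samples was used (0 such columns).

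The test was limma (version 3.58.1, R 4.3.3) on log2(value + 1), allowing for a trend of the variance with the mean. Adjusted p-values are Benjamini-Hochberg over all 25755 genes, each with at least 9 estimated reads in total. Fold changes are on that scale and understate those of low genes. Intervals are 95%. An exact permutation test of 3 against 3 mice cannot go below p = 0.1. Labels do not say more of the replicates than that they are different mice. On simulated data of 25755 genes, 200 of 200 genes changed 4-fold were recovered beside 10 false calls. The changed genes were drawn from those with more reads than Clec10a, and 1 spread was set for all genes. This recovery therefore does not give the power for smaller changes or for low genes. Without any change, 0 were called.

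Some genes are not reported here and were left out of the lists. The markers and the companion gene lists were chosen with earlier results of these data known. Text names all markers, the called genes of each list or else its highest gene in sham mice, and relatives of markers above 3 reads. Others (Csf1r, Spi1, Maf, Siglec1, F13a1, Timd4, Ccr2, Arg1, Hp, Sparc, Has1 to Has3, Itga2b, Fn1, Ace, Tmem119, Cdh5, Ccl21a, Mmrn1, Gfap, Ddx3y) were named after their values were seen. Alternatives were pseudocounts of 0.1 and 2, TMM and upper-quartile scaling, library size only, filters of 10 reads in every library or a mean of 10, a robust fit, voom with quality weights, leaving out each mouse, and rescaling to the 12 macrophage genes, which was chosen after seeing the data. Positions and coding sequences are from GENCODE M21 (GRCm38) and promoters from RefSeq (GRCm38.p6), compared with Biopython 1.88.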

Additional observations from a re-analysis of the deposited data

How the results depend on the processing

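No paired analysis was possible because the mice carry different numbers in the groups (1 to 3 and 4 to 6). Over all genes, 540 were called in the reported test, 861 with voom, 12084 after rescaling to the 12 macrophage genes, and 67 (without ON-CR mouse 6) to 854 (without ON-CR mouse 5) with 1 mouse left out. Markers called were 0 in the reported test and with any mouse left out, 1 with voom (Ms4a7) and 6 after rescaling to macrophage genes. Markers past the study's looser filter were 1, 5 after that rescaling, and 0 to 1 with 1 mouse left out (0 without sham mouse 2 or ON-CR mouse 4). The median over all genes was 0.03 on the log2 scale, and 0.15 with library size only, 0.15 with voom and -0.95 after rescaling. Small differences changed sign under some settings. With voom, Mrc1 was at 0.11, Stab1 at 0.17 and Lyz2 at 0.087. With library size only, Stab1 was at 0.12, Folr2 at 0.023 and Lyz2 at 0.017, values at or below that setting's own shift. Stab1 was at 0.0026 with TMM and 0.0096 with upper-quartile scaling. The rescaling lowers every gene by its own shift, so signs after it are partly set by construction. On that scale Cd163 was at -0.87, Lyve1 at -0.74, Clec10a at -0.37, Cbr2 at -0.90 and Laptm5, one of the 12 scaling genes, at -0.14. With 1 mouse left out, Mrc1 ran from -0.34 to 0.16, Stab1 from -0.19 to 0.17, Folr2 from -0.23 to 0.011, Lyz2 from -0.43 to 0.12 and Cbr2 from -0.10 to 0.34. Ms4a7 kept its direction in all 16 alternatives (0.06 to 1.38, adjusted p 0.0419 to 0.899), as did Pf4 (-1.48 to -0.27). The cause of these changes was not tested. All 10 markers passed both filters on low values, and Clec10a, with 13 estimated reads in 1 library, was the shallowest.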
